A study of Homo sapiens with 8 samples.

Results

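Collagen genes, the 44 genes of the deposited table whose symbol is COL, digits, A and digits and nothing more, were described across all 8 libraries. They were chosen by symbol alone, from 34415 genes in all. RNA was sequenced from TeloHAEC, a human aortic endothelial line immortalised with telomerase, cultured with the saturated fatty acid palmitate (palmitic acid), and with or without estradiol, the main estrogen. The groups were 4 estradiol libraries, from wild-type cells given palmitic acid and estradiol, and 4 control libraries, from wild-type cells given palmitic acid without estradiol. Both groups thus shared the line, the genotype and the fatty acid, and no library without palmitic acid was analysed here. The treatment tag of the estradiol libraries names only the fatty acid, so the groups were read from the sample titles. TeloHAEC is a single immortalised line, and the labels do not say whether libraries came from separate cultures, so p-values measure a spread between libraries that may be technical. No dose or exposure time was found in the labels.

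Collagens are extracellular proteins whose chains wind into a triple helix. Type IV chains form the sheet-like network of basement membranes, on which endothelial cells sit, and type XVIII is a basement membrane proteoglycan whose end fragment is endostatin. Fibrillar types I, II, III, V, XI, XXIV and XXVII build or regulate banded fibrils. The remaining types attach to fibrils, form beaded filaments or short-chain lattices, or span the cell membrane. Chains assemble as trimers, of like or of unlike chains depending on the type. Transcripts of chains that can be partners are set side by side here.

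The libraries held 33421051 to 39899258 reads assigned to genes, recovered from the deposited FPKM values (fragments per kilobase of gene length, scaled to each library's total). Estradiol replicate 4 and control replicate 3 stood apart, with values of GC-rich genes low in both. Rank correlations of their deviation from the median library with gene GC content were -0.848 and -0.869 over 10250 genes, against -0.342 to 0.654 in the other 6 libraries. Of 10 endothelial markers, 9 averaged at least 1 FPKM, among them CDH5, the endothelial cadherin, at 125 ± 15.2 FPKM in estradiol and 129 ± 19.5 in control libraries (SD, n = 4 each). VWF, which encodes von Willebrand factor, averaged 0.284 ± 0.0567 and 0.309 ± 0.0495 FPKM (SD, n = 4 each). None of 8 fibroblast markers reached 1 FPKM, and their sum ranged from 0.105 to 0.176 FPKM in estradiol and from 0.139 to 0.184 in control libraries. LUM, a fibroblast proteoglycan, was listed at 0 everywhere. Sums for 10 smooth muscle and pericyte markers, led by RGS5, SMTN, ACTA2 and TAGLN, ranged from 42.5 to 47.8 FPKM in estradiol and from 43.6 to 51.5 in control libraries, with DES listed at 0 and MYH11 at 35 reads or fewer. Sums for 8 epithelial markers, led by the keratins KRT18 and KRT19, ranged from 83.5 to 113 FPKM and from 81.8 to 126, with EPCAM and CDH1 at no more than 1 read in any library. Sums for 8 macrophage markers ranged from 31.3 to 43.0 FPKM and from 33.6 to 45.5, nearly all of it CD68, with PTPRC at no more than 2 reads. The part of these markers in the collagen levels was not tested. In bulk RNA, fewer cells of a type and less RNA per cell cannot be told apart.

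A small set of collagen genes carried nearly all collagen signal. Of the 44 genes, 13 averaged at least 1 FPKM over the 8 libraries and made up 99.3% to 99.4% of summed collagen FPKM in every library. By class these were 5 of 7 basement membrane genes, 3 of 11 fibrillar genes and 5 of 26 genes of other types. A further 5 averaged between 0.1 and 1 FPKM, 24 were lower but above 0 somewhere, and COL19A1 and COL26A1 were listed at 0 in all libraries, which at 3 counts allows up to 3 reads per library. COL6A2, a chain of beaded-filament type VI, was the highest member and ranked 845 among all genes by mean FPKM. COL4A2, a type IV chain, ranked 1058 and COL18A1 ranked 1499.

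**Figure D1:**
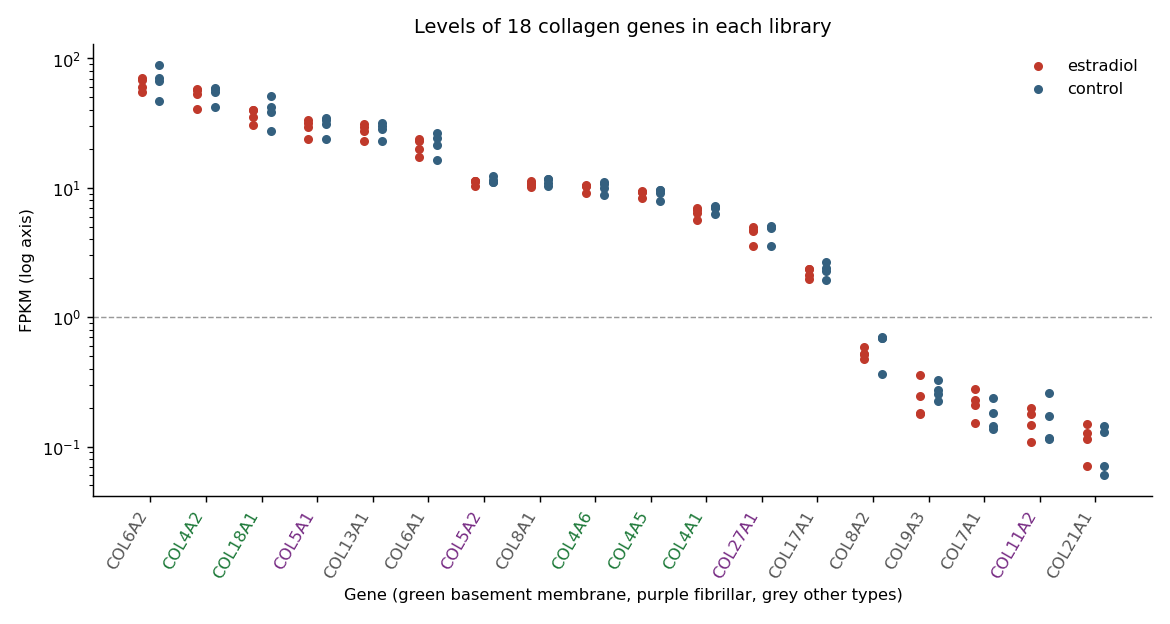
FPKM on a log axis of the 18 collagen genes that averaged at least 0.1 FPKM, each point a library, estradiol left of control, ordered by mean over the 8 libraries. Above the dashed line at 1 FPKM lie 13 genes, from COL6A2 to COL17A1, and in every gene shown the points of both groups overlap.

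The order of levels was firm in part. COL6A2 lay above COL4A2, COL4A2 above COL18A1, COL18A1 above COL5A1, COL5A1 above COL13A1 and COL13A1 above COL6A1 in 8 of 8 libraries, although the ranges of each of these neighbours overlapped between libraries. Per length of the longest reference transcript, COL5A1 and COL18A1 were level in estradiol libraries, at 37.6 ± 5.51 and 37.5 ± 4.72 FPKM recomputed from recovered reads, against 39.0 ± 6.09 and 41.0 ± 9.93 in control libraries (SD, n = 4 each). COL6A1 was apart from the next gene, COL5A2, with a lowest value of 16.3 FPKM against a highest of 12.2. COL5A2, COL8A1 and COL4A6 were not ordered beyond their spread, COL5A2 being the higher of the first pair in 5 of 8 libraries and COL8A1 the higher of the second in 6. COL4A6 was above COL4A5 in 8 of 8 libraries. In FPKM, COL4A1 lay below both with no overlap. COL27A1 and COL17A1 followed, each below its neighbour in all libraries with no overlap. The place of COL4A1 was not firm, as it turned with the gene length used. Per length of the longest reference transcript COL4A1 averaged 15.2 ± 1.44 in estradiol and 16.3 ± 0.9996 in control libraries. COL4A6 then averaged 12.6 ± 0.854 and 12.7 ± 1.27, and COL4A5 10.2 ± 0.560 and 10.2 ± 0.860 (SD, n = 4 each). In the tail, COL9A3 and COL7A1, and COL11A2 and COL21A1, were each in that order in 5 of 8 libraries.

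The 6 type IV genes form 3 neighbouring pairs. Of these genes COL4A2 was the highest in FPKM, COL4A6, COL4A5 and COL4A1 followed, and COL4A3 and COL4A4 were near 0. COL4A1 and COL4A2 encode the alpha1 and alpha2 chains of the main basement membrane network, in which alpha1 chains outnumber alpha2. COL4A2 measured 56.7, 58.2, 53.5 and 40.9 FPKM in estradiol replicates 1 to 4, against 58.6, 55.4, 41.8 and 58.5 FPKM in control replicates 1 to 4. COL4A1 measured 6.77, 6.997, 6.36 and 5.61 FPKM in estradiol and 6.96, 7.14, 6.28 and 7.21 FPKM in control libraries. In both genes the estradiol and control values overlapped, and both genes were lowest in estradiol replicate 4 and control replicate 3. The FPKM ratio of COL4A2 to COL4A1 averaged 8.10 ± 0.542 in estradiol and 7.74 ± 0.769 in control libraries (SD, n = 4 each). The size of this ratio depended on the gene length the authors divided by. For COL4A1 that length was 15595 bases, 2.36 times the longest reference transcript of 6616 bases, against 6446 and 6494 bases for COL4A2. Per length of the longest reference transcript, an alternative chosen after seeing the data, the ratio was 3.41 ± 0.228 in estradiol and 3.26 ± 0.324 in control libraries (SD, n = 4 each), and COL4A1 stood above COL4A6, COL4A5, COL5A2 and COL8A1 in mean level. In reads alone COL4A2 had between 2.75 and 3.48 times the reads of COL4A1. COL4A2 thus exceeded COL4A1 in 8 of 8 libraries on every scale used.

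COL4A5 and COL4A6, whose chains form a further type IV network known from smooth muscle and epithelial basement membranes, stood nearly level. COL4A6 averaged 10.1 ± 0.684 FPKM in estradiol and 10.2 ± 1.01 in control libraries, and COL4A5 averaged 9.09 ± 0.501 and 9.10 ± 0.768 FPKM (SD, n = 4 each). Their ratio, COL4A6 over COL4A5, stayed within 1.08 and 1.16 in all 8 libraries, the narrowest range among the chain ratios computed. COL4A3 and COL4A4, chains of the kidney and lung network in which COL4A5 is the partner, were nearly silent. COL4A3 had 1 read in estradiol replicate 1 and 0 in the other 7 libraries, and COL4A4 had 5, 2, 0 and 0 reads in estradiol and 0, 1, 2 and 0 reads in control libraries. These counts are at or near the floor of 3 reads, so no fold is given.

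Each of the 3 type IV pairs is arranged head to head, the genes leaving a shared region in opposite directions. Promoter windows from RefSeq (GRCh38.p14), which run from 250 bases before to 50 after an annotated start, were found for 32 of the 44 collagen genes and for 10 of the 13 with a mean of at least 1 FPKM. The starts of COL4A1 and COL4A2 lay 127 bases apart and their windows shared 226 bases. The nearest starts of COL4A6 and COL4A5 lay 380 bases apart and those of COL4A4 and COL4A3 lay 419 apart. Windows of the 4 type IV genes with a mean of at least 1 FPKM are shown, beside that of COL4A3, which had 1 read in all. COL4A6 has a further annotated start, 1416 bases from that of COL4A5, whose window is not shown. Capitals mark the GC box GGGCGG and the CCAAT box CCAAT, each searched on both strands. The printed matches do not overlap each other.
COL4A2, chr13:110307034-110307333, plus strand: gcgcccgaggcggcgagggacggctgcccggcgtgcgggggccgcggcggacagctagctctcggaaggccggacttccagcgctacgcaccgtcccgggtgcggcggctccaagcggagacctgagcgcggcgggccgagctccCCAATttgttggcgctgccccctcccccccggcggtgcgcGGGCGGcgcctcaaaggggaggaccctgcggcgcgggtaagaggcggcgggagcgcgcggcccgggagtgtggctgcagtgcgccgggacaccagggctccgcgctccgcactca
COL4A1, chr13:110307108-110307407, minus strand: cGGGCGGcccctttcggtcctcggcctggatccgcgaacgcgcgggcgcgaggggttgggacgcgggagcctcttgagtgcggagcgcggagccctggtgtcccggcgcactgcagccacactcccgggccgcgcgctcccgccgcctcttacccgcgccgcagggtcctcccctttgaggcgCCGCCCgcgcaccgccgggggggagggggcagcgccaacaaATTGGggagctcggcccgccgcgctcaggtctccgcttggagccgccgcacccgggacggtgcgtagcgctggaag
COL4A5, chrX:108439588-108439887, plus strand: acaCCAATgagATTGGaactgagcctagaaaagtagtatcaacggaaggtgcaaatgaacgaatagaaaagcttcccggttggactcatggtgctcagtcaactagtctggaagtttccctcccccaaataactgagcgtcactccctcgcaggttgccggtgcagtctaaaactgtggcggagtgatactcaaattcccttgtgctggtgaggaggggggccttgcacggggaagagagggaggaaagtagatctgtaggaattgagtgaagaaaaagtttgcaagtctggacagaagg
COL4A6, chrX:108439409-108439708, minus strand: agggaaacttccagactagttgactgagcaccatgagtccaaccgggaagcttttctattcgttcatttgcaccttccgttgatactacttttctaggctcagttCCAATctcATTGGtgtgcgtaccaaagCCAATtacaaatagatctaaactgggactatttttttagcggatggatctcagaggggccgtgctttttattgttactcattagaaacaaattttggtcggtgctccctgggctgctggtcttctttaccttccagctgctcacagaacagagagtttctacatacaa
COL4A3, chr2:227164374-227164673, plus strand: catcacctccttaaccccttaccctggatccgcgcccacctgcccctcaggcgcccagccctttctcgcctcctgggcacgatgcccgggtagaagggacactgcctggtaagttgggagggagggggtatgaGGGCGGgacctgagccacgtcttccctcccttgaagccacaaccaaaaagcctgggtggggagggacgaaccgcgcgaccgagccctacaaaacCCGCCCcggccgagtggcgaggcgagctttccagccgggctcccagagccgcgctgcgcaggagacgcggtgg

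The COL4A2 window held 1 GC box and 1 CCAAT box at 77.7% GC, and the COL4A1 window 2 and 1 at 76.7% GC. The COL4A5 window had 2 CCAAT boxes and no GC box at 49.3% GC, the COL4A6 window 3 CCAAT boxes and no GC box at 43.7% GC, and the COL4A3 window 2 GC boxes and no CCAAT box at 67.7% GC. The window at the further COL4A6 start differed, with 1 GC box and no CCAAT box at 50% GC. The COL4A4 window had neither motif at 74.0% GC, unlike that of its neighbour COL4A3. Of 35116 RefSeq windows, 45.0% held a GC box and 34.6% a CCAAT box, against 9 and 5 of the 13 windows of the 10 matched genes. The estrogen response half-site GGTCA, searched on both strands, was in 1 of 13 windows of the 10 matched genes, that of COL6A2, against 37.4% of all windows. The full element, GGTCA and TGACC with 3 bases between, was in 0 of these 13 windows and in 0.0570% of all. Some of the 13 windows share bases, so they are not separate observations. Their median GC content was 66.3%, against 58.7% over all windows, and no windows of like GC content were compared. These matches describe letters in 300-base windows only.

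COL18A1, the basement membrane proteoglycan gene, measured 40.2, 40.2, 35.1 and 30.6 FPKM in estradiol replicates 1 to 4. In control replicates 1 to 4 it measured 51.0, 38.4, 27.7 and 42.2 FPKM. Control libraries thus held both the highest and the lowest value, and the estradiol values lay between them. COL18A1 varied 1.84-fold from the lowest to the highest library, against 1.21-fold for COL4A5 of the same class. Their longest reference transcripts held 67.2% and 50.9% GC. COL6A2, of another class and at 66.4% GC, varied 1.90-fold. The cause of the difference in spread was not tested.

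Fibrillar signal came from type V and type XXVII, and the classic fibrillar genes were close to 0. COL5A1, whose chain joins type I fibrils and limits their width, measured 31.9, 33.6, 29.6 and 23.7 FPKM in estradiol and 33.6, 31.2, 23.9 and 34.5 FPKM in control libraries. Its partner COL5A2 averaged 11.1 ± 0.458 FPKM in estradiol and 11.5 ± 0.530 in control libraries, and COL27A1 averaged 4.48 ± 0.653 and 4.62 ± 0.712 FPKM (SD, n = 4 each). COL5A1 exceeded COL5A2 by a ratio of 2.67 ± 0.299 in estradiol and 2.68 ± 0.381 in control libraries. COL1A1, a chain of the type I collagen of bone and tendon, had 10, 17, 9 and 5 reads in estradiol and 10, 15, 5 and 8 reads in control libraries. Its partner COL1A2 had 6 to 11 and 7 to 12 reads, and the cartilage gene COL2A1 had 2 to 5 and 3 to 9 reads. The type I genes thus stood far below COL5A1, with means of 0.0472 ± 0.0272 and 0.0407 ± 0.0174 FPKM for COL1A1 and 0.0503 ± 0.0147 and 0.0517 ± 0.0112 FPKM for COL1A2 (SD, n = 4 each). COL3A1, the type III collagen of vessel walls and skin, had 0 reads in all 4 estradiol libraries and 1, 5, 4 and 1 reads in control libraries. The groups did not overlap in COL3A1, at an exact two-sided permutation p of 0.0286, the smallest that 8 libraries allow, and an adjusted p of 1. Groups failed to overlap in 1.51% of the 12751 genes under 1 FPKM and above 0 somewhere, 0.455% of them lower in estradiol, and at 11 reads in all no fold is given.

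Among other types, type VI was the most abundant, and a gene of that type was near the low end. COL6A2 measured 70.7, 67.6, 60.2 and 54.6 FPKM in estradiol replicates 1 to 4, against 89.8, 66.8, 47.2 and 70.5 FPKM in control replicates 1 to 4. COL6A1, encoded beside it, averaged 21.0 ± 2.95 FPKM in estradiol and 22.2 ± 4.43 in control libraries (SD, n = 4 each). Control replicate 1 was the highest library and control replicate 3 the lowest in both genes, with the estradiol values between. COL6A3, the chain with which alpha1 and alpha2 assemble in beaded filaments, was singled out after its values were seen. It averaged 0.0691 ± 0.0244 FPKM in estradiol and 0.0714 ± 0.0198 in control libraries (SD, n = 4 each), from 18 to 37 reads per library. The FPKM ratio of COL6A1 to COL6A3 lay between 236 and 479.7 in all libraries. COL6A5 and COL6A6, which encode alternatives to that chain and were also named after their values were seen, had at most 1 read in any library.

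COL13A1, a membrane-spanning collagen of cell contacts, measured 31.0, 29.6, 27.3 and 23.0 FPKM in estradiol and 31.8, 28.6, 22.9 and 29.9 FPKM in control libraries. COL8A1, a short-chain collagen of the vessel wall, averaged 10.7 ± 0.499 FPKM in estradiol and 11.1 ± 0.668 in control libraries. Its partner gene COL8A2 averaged 0.525 ± 0.0447 and 0.609 ± 0.166 FPKM (SD, n = 4 each). COL8A1 was highest in control replicate 3, where 11 of the other 12 genes at 1 FPKM or more had their lowest or next lowest value. COL17A1, a hemidesmosome collagen known from epithelia, averaged 2.20 ± 0.188 FPKM in estradiol and 2.33 ± 0.295 in control libraries (SD, n = 4 each), from 411 to 593 reads. Lower members included COL9A3, a fibril-associated chain of cartilage, at 0.241 ± 0.0827 and 0.270 ± 0.0433 FPKM, and COL7A1, the anchoring fibril gene of skin, at 0.217 ± 0.0523 and 0.175 ± 0.0462 FPKM. COL11A2, a cartilage fibrillar chain, stood at 0.158 ± 0.0393 and 0.165 ± 0.0669 FPKM, and COL21A1, a fibril-associated chain, at 0.115 ± 0.0328 and 0.101 ± 0.0419 FPKM (SD, n = 4 each, estradiol before control). The 26 genes under 0.1 FPKM had at most 52 reads in any library, and 13 members had at most 5 reads in every library.

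**Figure D2:**
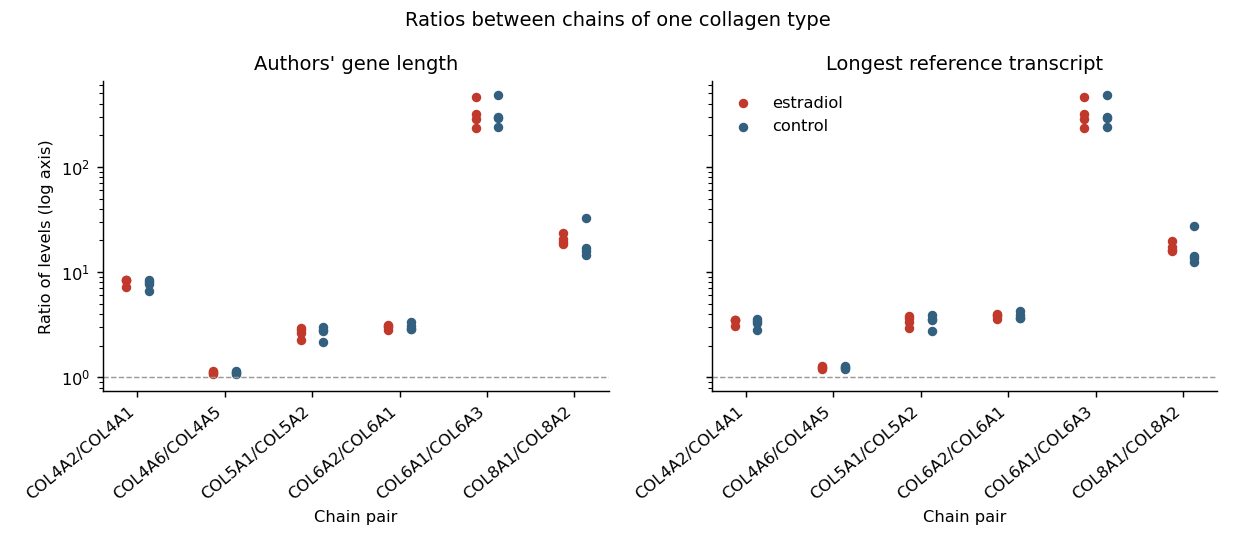
Ratios between partner chains on a log axis, of FPKM (left) and per longest reference transcript (right). Each point is a library, estradiol left of control. In FPKM, COL4A6 over COL4A5 stays between 1.08 and 1.16 and COL6A1 over COL6A3 between 236 and 479.7. COL4A2 over COL4A1 lies between 6.66 and 8.42 in FPKM, and between 2.80 and 3.55 per longest reference transcript. The groups overlap in each ratio.

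Summed by class, basement membrane genes gave 114 ± 14.0 FPKM in estradiol and 119.6 ± 18.9 in control libraries (SD, n = 4 each). Fibrillar genes gave 45.6 ± 5.48 and 47.2 ± 5.83 FPKM, and other types gave 126 ± 13.8 and 134 ± 25.7 FPKM (SD, n = 4 each, estradiol before control). Shares by class differed between the groups by less than their SD. Basement membrane genes held 39.9% ± 0.717 of collagen FPKM in estradiol and 39.8% ± 0.668 in control libraries, fibrillar genes 15.9% ± 0.393 and 15.8% ± 1.03, and other types 44.2% ± 1.07 and 44.4% ± 1.61 (SD, n = 4 each). COL6A2 alone held 22.1% ± 0.644 and 22.5% ± 2.27 and COL4A2 18.2% ± 0.933 and 17.9% ± 0.746 (SD, n = 4 each). No class sum or share had groups that did not overlap. All collagens together gave 286 ± 32.8 FPKM in estradiol and 301 ± 49.5 in control libraries (SD, n = 4 each), under 0.101% of all FPKM in every library. Without estradiol replicate 4 and control replicate 3 the sums were 301 and 324 FPKM. The direction of the sums turned when 1 library was left out. The log2 ratio of estradiol to control means over all collagens was -0.07, against 0.0015 without estradiol replicate 4 and 0.0088 without control replicate 1. This ratio stayed negative with any other library left out, down to -0.18 without control replicate 3. Without estradiol replicate 4 it was 0.017 for basement membrane and 0.028 for fibrillar genes, and without control replicate 1 it was 0.0024 for basement membrane genes and 0.026 for other types.

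**Figure D3:**
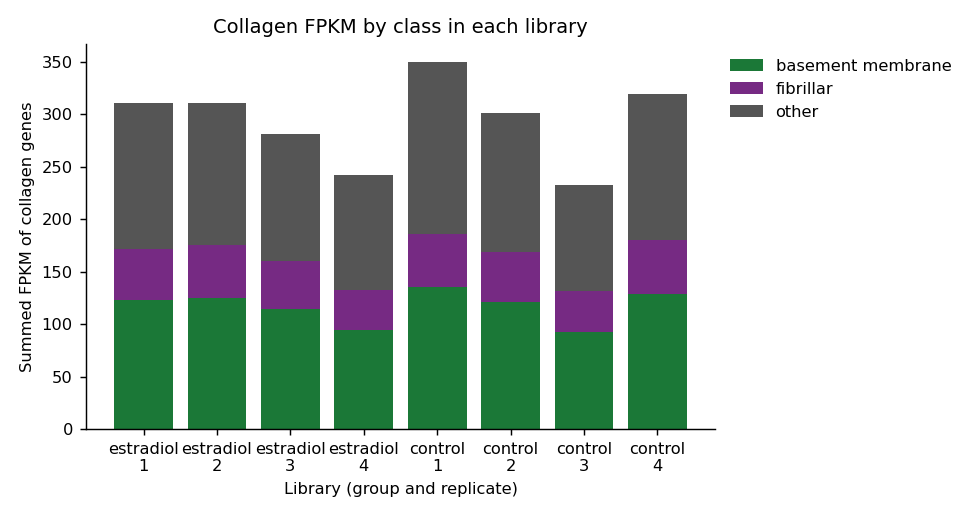
Summed FPKM of basement membrane, fibrillar and other collagen genes, stacked in a bar for each library, estradiol libraries left of control libraries. The basement membrane sums run from 94.5 to 125 FPKM in estradiol and from 92.6 to 136 in control libraries, and the groups overlap in every class.

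No collagen gene passed the test between estradiol and control libraries. With limma on log2(FPKM + 1), over genes with a mean of at least 1 FPKM and with Benjamini-Hochberg adjustment, 0 of 13 collagen genes were called at an adjusted p under 0.05, all at 1.00. Of all 10720 genes tested 0 were called, which is 0%, so the collagen count is the background. An unadjusted limma p under 0.05 was found in 0.243% of these 10720 genes. That is rarer than this threshold gives without any effect, so these p-values ran large. The chance of calling a real change was not computed, and the lack of calls does not show equal levels. The number was 26 genes, against 416 without estradiol replicate 4 and control replicate 3 and 259 with the GC trend removed. Those counts too lie below what this threshold gives without any effect. The smallest unadjusted limma p among the 13 was 0.340, for COL4A1. No collagen gene of the 13 had groups that did not overlap, against 0.532% of tested genes, made up of 0.308% higher and 0.224% lower in estradiol libraries. Without estradiol replicate 4 and control replicate 3 the count stayed at 0 of 13, with 13 negative values and a median log2 fold change of -0.05.

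The fitted differences were small and mostly negative. COL18A1 had a log2 fold change of -0.10 with a 95% interval from -0.49 to 0.29. COL6A2 had -0.09 with an interval from -0.48 to 0.31, and COL4A2 had -0.03 with an interval from -0.36 to 0.29. These intervals leave room for changes in either direction, so they do not show that the levels were equal. COL4A1 had -0.09 with an interval from -0.29 to 0.11, COL5A1 had -0.05 with -0.37 to 0.27, and COL4A5, the only positive value, had 0.00088 with -0.19 to 0.20. Of the 13 values 12 were negative with a median of -0.05, against 50.5% negative and a median of -0.00047 over all tested genes. By class the medians were -0.03 over 5 basement membrane genes, -0.05 over 3 fibrillar genes and -0.05 over 5 genes of other types. The genes share libraries, so their signs are not separate observations. Without estradiol replicate 4 there were 7 positive values of 13 and a median of 0.02, without control replicate 1 there were 7 and without control replicate 4 there were 6. Without control replicate 2 there were 2, and without control replicate 3 or estradiol replicate 1, 2 or 3 there were 0.

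**Figure D4:**
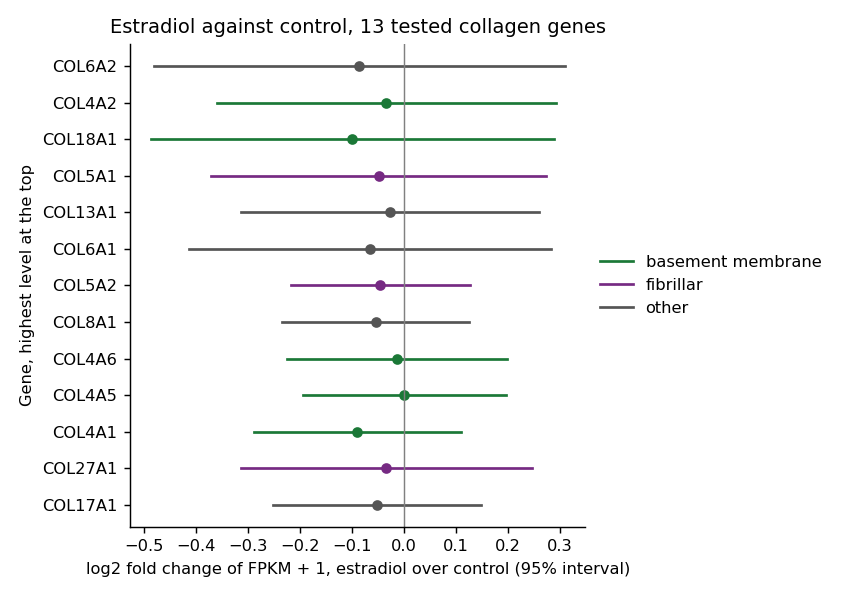
Log2 fold change (estradiol over control, log2(FPKM + 1) scale) of the 13 tested collagen genes with 95% limma intervals, by class. All 13 intervals cross 0 and the points lie between -0.10 and 0.00088.

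Under the filter, 29 collagen genes above 0 were compared with the exact two-sided permutation test, and 0 were called after adjustment, as were 0% of the 12751 genes so tested. COL3A1 was the only collagen gene of these with groups that did not overlap. COL8A2 had an exact permutation p of 0.400 and COL7A1 of 0.286.

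The spread within the groups followed 2 libraries. Estradiol replicate 4 and control replicate 3 were the 2 lowest libraries for 11 of the 13 genes (84.6%), against 43.9% of all tested genes, the exceptions being COL5A2 and COL8A1. The mean of these 2 libraries over that of the other 6 was 0.708 for COL18A1, 0.718 for COL6A2 and 0.728 for COL4A2. It was 0.941 for COL5A2 and 1.07 for COL8A1. The median was 0.772 over the 13 genes and 0.925 over all tested genes. From the lowest to the highest of all libraries, the 13 genes varied by a median of 1.39-fold, against 1.49-fold over all tested genes. No comparison with genes of like GC content was made. Collagen transcripts were GC-rich, with a median of 59.0% GC (46.8% to 67.2%) against 47.9% over 10250 tested genes with a matched transcript. Across the 13 genes the ratio of the 2 libraries to the other 6 had a Spearman correlation of -0.978 with GC content. This is a description over genes that share the same libraries. With each library's trend with GC content removed, limma called 0 of 13 collagen genes, 12 values were negative and the median log2 fold change was -0.03.

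**Figure D5:**
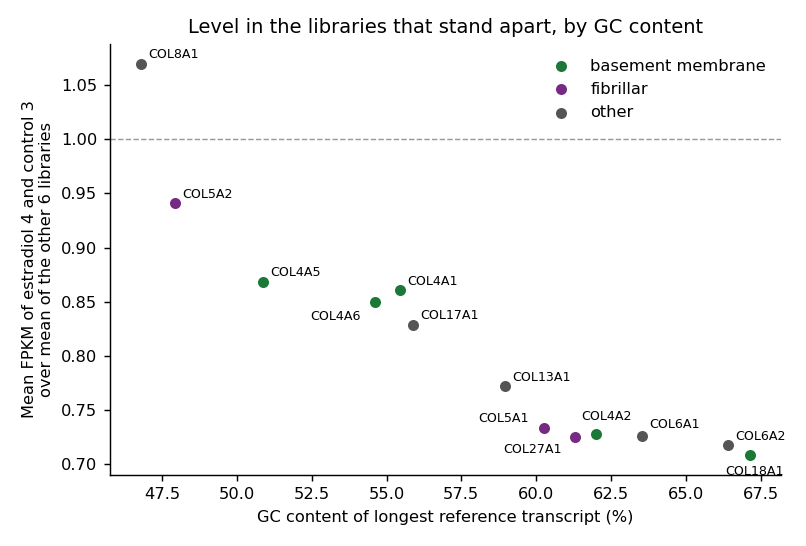
Mean of estradiol replicate 4 and control replicate 3 over the mean of the other 6 libraries, against GC percent of the longest reference transcript, for the 13 tested collagen genes. COL18A1 and COL6A2, at 67.2% and 66.4% GC, lie lowest at 0.708 and 0.718, and COL8A1, at 46.8% GC, lies highest at 1.07.

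Genes that make, export, process or bind collagen were not called either. Of 41 tested genes in 4 lists, 0 passed limma's adjusted p, 15 had positive and 26 negative values, and the median was -0.01 on the log2 scale. Among 18 modification and folding genes, PPIB, a prolyl isomerase, averaged 1068 ± 146 FPKM in estradiol and 1042 ± 71.2 in control libraries (SD, n = 4 each). SERPINH1, the collagen chaperone, averaged 234 ± 33.4 and 249.7 ± 42.1 FPKM, and P4HB, a subunit of prolyl hydroxylase, 745 ± 101 and 759 ± 118 FPKM (SD, n = 4 each). Among 12 export genes, SEC24D, a vesicle coat subunit, averaged 127 ± 8.87 and 127 ± 6.68 FPKM (SD, n = 4 each). Only 4 of 14 processing and crosslinking genes were tested, all negative. LOXL2, a lysyl oxidase, averaged 226 ± 31.0 FPKM in estradiol and 227 ± 32.2 in control libraries, PXDN, the peroxidase that crosslinks type IV collagen, 78.4 ± 9.29 and 80.6 ± 7.82, and LOX 60.5 ± 8.43 and 66.8 ± 10.2 FPKM (SD, n = 4 each). Among 7 receptors tested, ITGB1, the shared beta subunit of collagen-binding integrins, averaged 310.2 ± 42.6 and 302 ± 43.3 FPKM (SD, n = 4 each). ITGB1 was highest in estradiol replicate 4, at 374 FPKM, and next in control replicate 3, at 366 FPKM. In these libraries most collagen genes were lowest. Their mean over that of the other 6 libraries was 1.30 for ITGB1, at 39.98% GC, and 1.28 for LOX, at 39.61% GC. It was 0.757 for LOXL2, at 58.24% GC, and 0.801 for PXDN, at 55.20% GC. The part of GC content in the contrast between ITGB1 and the collagen genes was not tested.

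Antisense genes at the COL4A2 locus, named after their values were seen, stood out in 1 library. COL4A2-AS1 measured 0.426, 2.72, 0.141 and 0 FPKM in estradiol replicates 1 to 4, against 0.377, 0.187, 0.791 and 0.325 FPKM in control replicates 1 to 4. Estradiol replicate 2 was the highest, with 49 reads, and the other 7 libraries lay below 1 FPKM. That library had the fewest reads of all, 33421051, yet the most genes at 1 FPKM or more, 10959 against 10609 to 10716. Whether this bears on the antisense genes was not tested. COL4A2-AS2 was also highest there, at 0.767 FPKM, against 0.193 FPKM or less in the other 7. COL4A2 itself had at least 10119 reads in every library. No label says whether counting used strand, so reads of the antisense genes and of COL4A2 cannot be told apart.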

How the data were processed

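The deposited table held FPKM values, made by the authors for 34415 genes in 8 libraries. Fastp 0.20.1 and HTSeq were used, per the submitters' processing notes. Neither those notes nor the labels name an aligner, build, annotation or strand setting. From the FPKM steps, 100.0% of 152348 values came out as whole reads (relative tolerance 1e-06), which gave the depth and the read numbers.

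The 10720 genes averaging 1 FPKM or more were transformed to log2(FPKM + 1) and fitted in R 4.3.3 by limma 3.58.1, its variance prior following the mean. P-values were two-sided and adjusted over all these genes by Benjamini-Hochberg. This scale understates the change of low genes. The fit was tested on simulated data with independent noise, scaled below the spread of these libraries and without a trend with GC content. That test does not cover spread that libraries share. Genes under that level were compared by an exact two-sided permutation test over 70 relabellings, whose smallest p is 0.0286. Class sums were not tested. GC content and reference length came from the longest GENCODE 29 transcript of the same name. Reads without molecular identifiers are not independent molecules, so the floor of 3 reads covers counting error only. Alternatives covered the pseudocount, filter, scaling, replicate block, GC content, recovered reads and left-out libraries.

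The text names collagen genes with a mean of at least 0.1 FPKM, a few classic chains whatever their level, and the highest or lowest-p genes of each pathway list. Members and lists were chosen with earlier results of these data known.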

Additional observations from a re-analysis of the deposited data

Results flagged for a closer look

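Of 130 groups of 4 libraries examined, 13 had a library far from the other 3 by Dixon's criterion, where chance gives about 1 in 20. The groups are genes, sums and ratios over the same libraries, and some derive from others. The flags are thus not separate observations, and their number is not a test. In estradiol replicate 4, COL5A2 was low at 10.4 FPKM, COL4A6 was low at 9.04 FPKM and the COL4A2 to COL4A1 ratio was low at 7.29. In the same library SAR1B, a coat GTPase of collagen export, was high at 12.8 FPKM, LOX at 73.0 FPKM and ITGB1 at 374 FPKM. The longest reference transcripts of SAR1B, LOX and ITGB1 held 38.96%, 39.61% and 39.98% GC. The part of GC content in these high values was not tested. In control replicate 3, COL27A1 was low at 3.56 FPKM, COL8A2 at 0.361 FPKM, PXDN at 68.9 FPKM and the type IV sum at 64.9 FPKM. The COL8A1 to COL8A2 ratio was high there at 32.5. In control replicate 1, other types held a high share of collagen FPKM at 46.8%. COL4A3 stood at 0.00296 FPKM in estradiol replicate 1, which is 1 read against 0 in the other 3.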

How the results depend on the processing

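No collagen gene, no pathway gene and no gene of the whole table was called in the alternatives run, with limma adjusted p at each. The number of genes at an unadjusted p under 0.05 was 26, against 11 with the replicate block, 23 with limma-voom on recovered reads, 416 without estradiol replicate 4 and control replicate 3, and 259 with the GC trend removed. Same-numbered libraries had correlations of 0.616, 0.0728, -0.478 and -0.737 between their deviations, so the numbers were not taken as a pairing; the replicate block gave 0 calls. Leaving out 1 library at a time moved log2 fold changes from -0.25 to 0.055 for COL6A2, -0.15 to 0.078 for COL4A2, -0.26 to 0.028 for COL18A1, -0.16 to 0.052 for COL5A1, -0.12 to 0.057 for COL13A1, -0.20 to 0.023 for COL6A1, -0.074 to 0.032 for COL4A6, -0.054 to 0.037 for COL4A5 and -0.13 to 0.055 for COL27A1. COL5A2, COL8A1, COL4A1 and COL17A1 stayed negative there. COL4A5 was -0.0012 with quantile normalization and -0.018 without control replicate 3 and estradiol replicate 4; the cause was not tested. Per longest reference transcript the ratio of COL4A5 to COL4A1 was 0.649, below 1, against 1.42 and 1.32 in estradiol and control FPKM. Replicates limit what can be seen: the 95% limma intervals reached a median of 0.28 on the log2 scale to either side.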
